A study of Mus musculus with 2 samples.

Results

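The genes described here are 34 type I interferon-stimulated genes, taken by symbol from the 31053 genes of the count tables, where all 34 were found. They were followed across cell classes in leukocytes sorted from mouse melanomas, in 1 control library and 1 library from mice given an agonist of OX40 (Tnfrsf4, a receptor that costimulates T cells after activation). Both libraries came from 10-week-old female wild-type C57BL/6 mice bearing subcutaneous B16-F10 tumours, a transplantable melanoma line. Tumours were digested, leukocytes were enriched over Ficoll, and CD45+ DAPI- cells were sorted and profiled by droplet 3′ RNA sequencing. The antibody, its dose and timing, what the control mice received and how many mice were pooled are not given in the sources used here.

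Type I interferons, the interferon-alpha family and interferon-beta, are secreted by cells that sense foreign or misplaced nucleic acid, and they signal through the receptor chains Ifnar1 and Ifnar2. The receptor activates Stat2, which acts with Irf9 in a complex that binds interferon-stimulated response elements in the promoters of target genes. The products of those genes sense RNA and DNA, block translation or replication of viruses, tag proteins, and feed back on the pathway. In tumours, macrophages and dendritic cells are known sources and responders, and many of the same genes also respond to interferon-gamma.

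Promoter sequence is shown first, since the response element is the site through which the pathway is known to act on such genes. The core of the response element was searched as GAAA, any 2 bases and GAAA again, or TTTC, any 2 bases and TTTC for the other strand, with overlapping matches counted, in the 250 bases before the RefSeq start of each gene in GRCm38.p6. Of the 34 members 25 were in the promoter table, and 12 of these (48.0%) held at least 1 match and 6 (24%) at least 2. Of all 27025 genes listed, 3.46% held a match and 0.211% held 2 or more. The last 160 bases before the start are printed for 5 members with a match that are described repeatedly in what follows and for Ifit2, which had none in either of its listed start windows. Capitals mark the matched motif, and each sequence is written 5′ to 3′ on the strand of its gene.
Isg15 (chr4:156200819-156200978, minus strand): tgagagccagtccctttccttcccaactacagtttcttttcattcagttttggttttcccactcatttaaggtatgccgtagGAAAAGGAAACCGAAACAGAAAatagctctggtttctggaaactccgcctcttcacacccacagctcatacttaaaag
Bst2 (chr8:71537473-71537632, minus strand): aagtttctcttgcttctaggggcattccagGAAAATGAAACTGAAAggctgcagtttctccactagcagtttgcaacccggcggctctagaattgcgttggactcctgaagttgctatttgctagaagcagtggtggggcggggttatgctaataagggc
Ifit1 (chr19:34640729-34640888, plus strand): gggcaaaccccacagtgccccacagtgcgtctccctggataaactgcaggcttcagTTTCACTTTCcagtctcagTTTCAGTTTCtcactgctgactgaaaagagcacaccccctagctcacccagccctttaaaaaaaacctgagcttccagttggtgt
Ifit3 (chr19:34583369-34583528, plus strand): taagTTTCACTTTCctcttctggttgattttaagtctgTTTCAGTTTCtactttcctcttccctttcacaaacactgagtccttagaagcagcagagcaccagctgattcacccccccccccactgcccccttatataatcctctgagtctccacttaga
Rsad2 (chr12:26456453-26456612, minus strand): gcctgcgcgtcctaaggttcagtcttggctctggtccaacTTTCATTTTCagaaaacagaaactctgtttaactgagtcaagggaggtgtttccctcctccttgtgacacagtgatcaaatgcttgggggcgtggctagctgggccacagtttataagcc
Ifit2 (chr19:34550534-34550693, plus strand): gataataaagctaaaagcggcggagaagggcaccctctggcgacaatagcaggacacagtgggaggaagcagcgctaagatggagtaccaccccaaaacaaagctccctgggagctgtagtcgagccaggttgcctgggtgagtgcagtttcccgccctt
Isg15 held 3 overlapping matches, Bst2 2 overlapping ones, Ifit1 and Ifit3 2 separate ones, and Rsad2 1. A match describes letters only, and binding was not measured.

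The members were spread over 14 chromosomes of GRCm38 in GENCODE release M21. Several lie in clusters, among them Ifit2, Ifit3, Ifit3b and Ifit1 within chr19:34550694-34650009. The genes Oasl2, Oasl1, Oas2, Oas3 and Oas1a are all on chromosome 5, and Rsad2 and Cmpk2 are neighbours on chromosome 12. Reads of near-identical copies (Ifit3 and Ifit3b, the Oas1 genes, the Schlafen genes) may not be assignable to a single copy in the authors' counting, so values of single copies are uncertain.

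The control library held 7187 barcodes with a median of 8927 UMIs (unique molecular identifiers, 1 per captured RNA molecule), and the treated library 8569 with a median of 7309. After filtering and removal of doublets 6031 control and 7050 treated cells were kept, and 18 barcode sequences occurred in both libraries. Cells were gated on marker genes, none of them a member. Mononuclear phagocytes, which group monocytes and macrophages, numbered 2442 and 3037 and CD8 T cells 1569 and 1211. Melanoma-marked cells numbered 458 and 617, although the sort was for CD45. Their Pmel level was 4713 CPM (a gene's UMIs over all UMIs of the class, scaled to 1000000) in control and 4347 in treated. In type 2 conventional dendritic cells (cDC2) the marker Clec4a4 was at 0 and 0.901 CPM. With 1 library per group there is no replicate check and no test. Ranges in parentheses are 95% intervals of counting error only, narrower than they should be for genes whose UMIs sit in few cells, and a gene is called lower or higher in a class when its level differed by at least 1.5-fold with an interval that leaves out 1.

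Neutrophils, plasmacytoid dendritic cells and mononuclear phagocytes held the highest summed levels of the 34 genes in both libraries, and NK cells the lowest. In control, the sum was 9494 CPM in neutrophils, 4707 in plasmacytoid dendritic cells, 4094 in mononuclear phagocytes, 3251 in regulatory T cells and 3043 in cDC2. It was 1492 CPM in mature migratory dendritic cells, 1319 in melanoma-marked cells, 910 in CD8 T cells and 640 in NK cells. In treated, the same classes held 5436, 5765, 3760, 3578, 3104, 1338, 662, 843 and 510 CPM. Neutrophils therefore stood first in control and plasmacytoid dendritic cells in treated, and melanoma-marked cells moved from above CD8 T cells to below them. Both of the leading classes are small, with 44 and 103 neutrophils and 17 and 40 plasmacytoid dendritic cells. These sums are of UMIs, and the members were not compared per length.

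**Figure D1:**
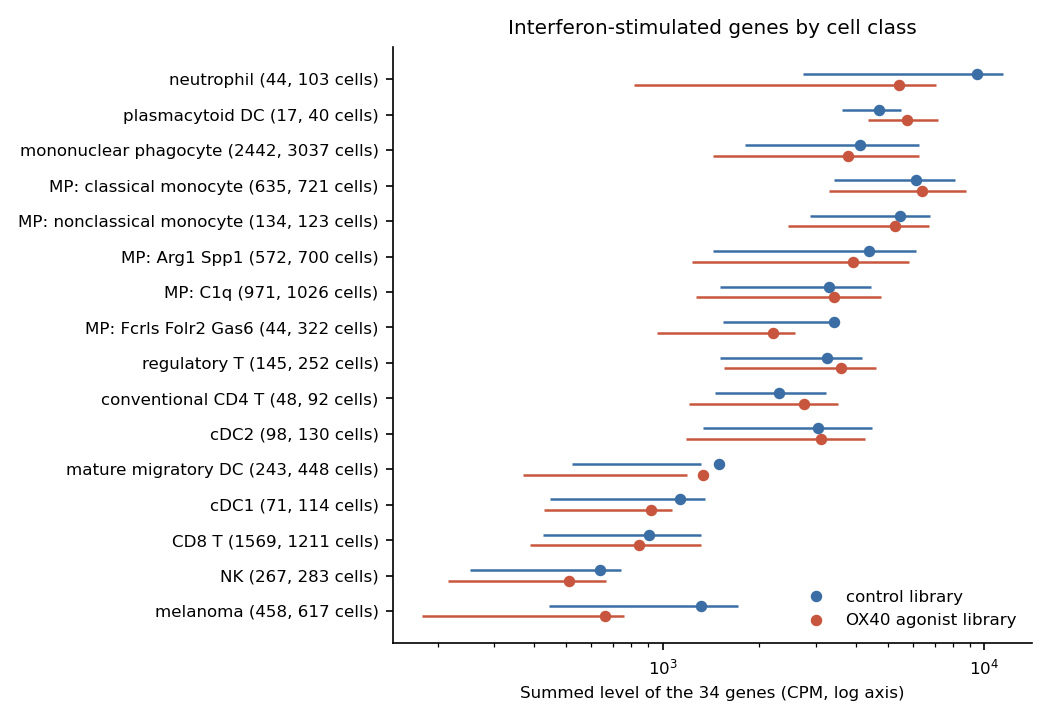
Summed level of the 34 genes by gated cell class (x axis, CPM, log scale); points are the level over all UMIs of a class and lines run from the 25th to the 75th percentile of single cells, in blue for control and red for OX40 agonist. Melanoma-marked cells sit at 1319 CPM in control and 662 in treated, the widest gap between the points among the classes with over 100 cells in each library.

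Members differed in which class led. Neutrophils held the highest level of 26 of the 34 genes in control and of 14 in treated, and these 14 were among the 26. Isg15, a ubiquitin-like protein that is attached to other proteins, stood at 2169 CPM in control neutrophils (202 UMIs) and 1125 in treated ones (181 UMIs), against 413 and 336 CPM in mononuclear phagocytes. Slfn4, a Schlafen family member of myeloid cells, stood at 333 and 391 CPM in neutrophils and 17.9 and 23.0 in mononuclear phagocytes. Bst2, or tetherin, which holds budding virus at the cell surface, was highest in plasmacytoid dendritic cells at 3612 and 3785 CPM, with melanoma-marked cells next in control at 624. Ifi27l2a, a small membrane protein, was highest in regulatory T cells at 2147 and 2563 CPM, and stood at 1296 and 1378 in mononuclear phagocytes and 368 and 379 in CD8 T cells. Ifi27l2a was also the member with the most UMIs in mononuclear phagocytes, so that a high sum in a class can rest on 1 or a few genes.

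A high sum was not the same as coordinated expression. In mononuclear phagocytes Ifi27l2a and Bst2 were broad: at 2000 UMIs per cell they had a UMI in 75.1% and 50.6% of control cells and 74.6% and 50.4% of treated cells. The Ifit genes, whose products bind foreign RNA, were narrow, with Ifit1 detected in 6.72% and 5.58% of the same cells. The 10% of phagocytes richest in Ifit1 held 94.2% of its UMIs in control and 96.6% in treated, against 32.6% and 35.4% for Ifi27l2a and 61.5% and 64.9% for Isg15. Both measures depend on a gene's level, so a rare gene looks narrow, and neither shows coordination. For Oas2, at 8.91 CPM in control phagocytes, the richest 10% held 100% of the UMIs. Cmpk2, a mitochondrial nucleotide kinase that lies beside Rsad2, was detected in 3.17% and 2.71% of phagocytes, and Rsad2, or viperin, which makes a nucleotide that stops viral RNA synthesis, in 11.6% and 11%.

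To find cells in which many members were high together, every cell was thinned to 2000 UMIs, and 9 features were used to define the state. These were Isg15, Ifit1, Ifit2, Ifit3 with Ifit3b, Rsad2, Oasl1, Usp18, Ifi44 and Cmpk2. Of these, Isg15 was not rare, with a UMI in 35.97% of control and 31.45% of treated phagocytes. A cell with a UMI of at least 4 of the 9 is called coordinated-high, and the other 24 genes were kept as a readout that did not choose the cells. Of 2366 control phagocytes 130 were coordinated-high, 5.49% (4.61 to 6.49), and of 2919 treated phagocytes 144, 4.93% (4.18 to 5.78). The shares differed by less than their counting intervals. At the limit, 51 control and 54 treated phagocytes had exactly 4 features, and 89 and 83 had 3. Mononuclear phagocytes made up 75.1% of the 173 coordinated-high cells in control and 77.4% of the 186 in treated, against 41.3% and 43.7% of the cells examined. These totals include cells with markers of 2 lineages (9 in control and 10 in treated) and cells without a class (3 and 12). Of the cells without a class, 3 of 101 control and 12 of 140 treated cells, 8.57% (4.51 to 14.5), were coordinated-high.

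Among phagocyte subsets the state was found in each. Arg1 Spp1 cells, marked by genes of hypoxic and wound-associated macrophages, held 42 coordinated-high cells of 560 in control, 7.50% (5.46 to 10.0), and 36 of 667 in treated, 5.40%. The C1q macrophages, which express the first complement component, held 49 of 947, 5.17%, and 60 of 1005, 5.97%. Classical monocytes held 30 of 622, 4.82%, and 30 of 705, 4.26%. Nonclassical monocytes stood at 1.53% and 3.33%. Cells marked by Fcrls, Folr2 and Gas6 held 2 of 44, 4.55%, and 7 of 318, 2.20%. Classical monocytes therefore combined the highest summed level among these subsets (6112 and 6377 CPM) with a coordinated-high share no higher than that of C1q macrophages (3289 and 3411 CPM).

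**Figure D2:**
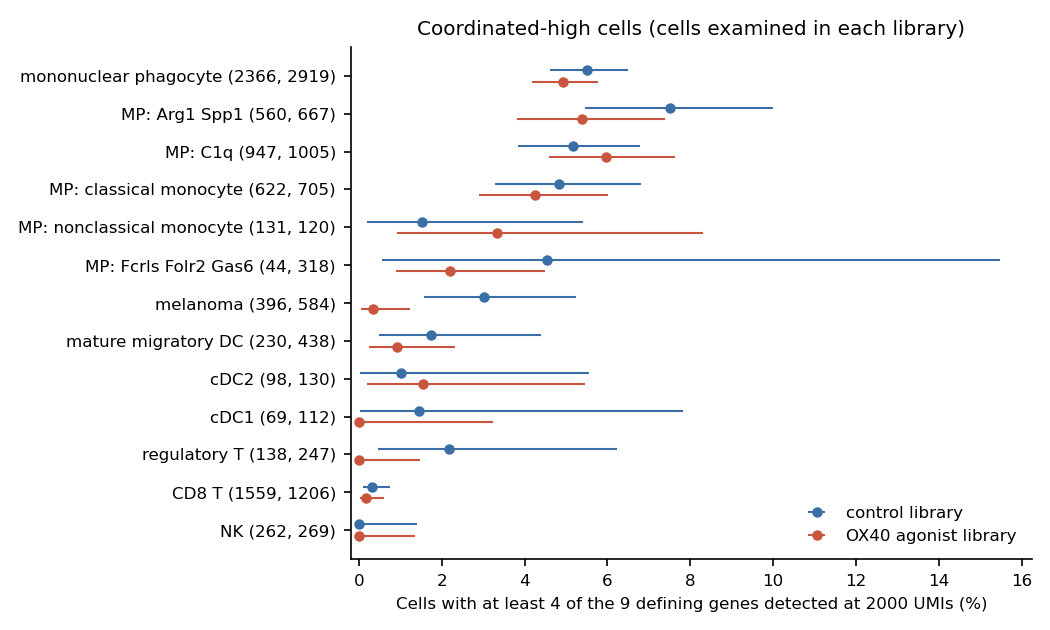
Share of cells with at least 4 of the 9 defining features at 2000 UMIs, by class and phagocyte subset (x axis, percent); points are shares and lines are exact Clopper-Pearson 95% intervals, with the cells examined in each library in parentheses. All mononuclear phagocytes sit at 5.49% in control and 4.93% in treated, and melanoma-marked cells at 3.03% and 0.342%. Neutrophils (25.0% of 16 cells and 10.5% of 19), plasmacytoid dendritic cells and some other classes are not drawn. Shares of 0 also have Clopper-Pearson lines here, up to 1.40% for control NK cells, which are longer than the 3-count limits in the text.

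CD8 T, NK and regulatory T cells held few such cells. In CD8 T cells 5 of 1559 control cells, 0.321%, and 2 of 1206 treated cells were coordinated-high. No NK cell of 262 in control was, which allows a share of up to 1.15% (3 counts of the total), and none of 269 in treated, which allows up to 1.12%. Regulatory T cells, despite their high sum, held 3 of 138 and 0 of 247, the latter allowing up to 1.21%. The smaller lymphocyte classes were less certain. Conventional CD4 T cells held 1 of 46 and 1 of 89, gamma-delta T cells 0 of 17 and 1 of 19, and B or plasma cells 0 of 16 and 1 of 45. T cells without a resolved subset held 0 of 144 in control and 4 of 180, 2.22% (0.609 to 5.59), in treated. Mature migratory dendritic cells held 4 of 230, 1.74%, and 4 of 438. Melanoma-marked cells held 12 of 396, 3.03% (1.58 to 5.23), in control and 2 of 584, 0.342%, in treated. Plasmacytoid dendritic cells held 0 of 17, which allows up to 17.6%, and 1 of 40. At 2000 UMIs only 16 control and 19 treated neutrophils could be examined, with 4 and 2 coordinated-high. These shares, 25.0% (7.27 to 52.4) and 10.5% (1.30 to 33.1), were the highest of any class, on few cells. At 1000 UMIs and 3 features the neutrophil shares were 7 of 38, 18.4% (7.74 to 34.3), and 8 of 80, 10.0% (4.42 to 18.8). Phagocytes stood at 5.55% and 4.93% at that setting.

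The 24 genes that did not choose the cells followed the defining features step by step in phagocytes. In control, cells with none of the 9 features held 5.55 UMIs of the 24 genes per cell, and cells with 1, 2, 3, 4, 5 and at least 6 held 8.62, 11.7, 14.1, 16.5, 20.6 and 21.7. In treated, the same steps gave 5.40, 9.17, 13.2, 18.3, 17.4, 17.6 and 23.0. The level thus climbed over the first 3 features in both libraries, with a flat stretch from 3 to 5 in treated, and showed no break at the limit of 4. Coordinated-high phagocytes held 19.4 UMIs of the 24 genes against 7.35 in the other phagocytes in control, a ratio of 2.64 (2.53 to 2.76), and the ratio was 2.63 (2.52 to 2.73) in treated.

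**Figure D3:**
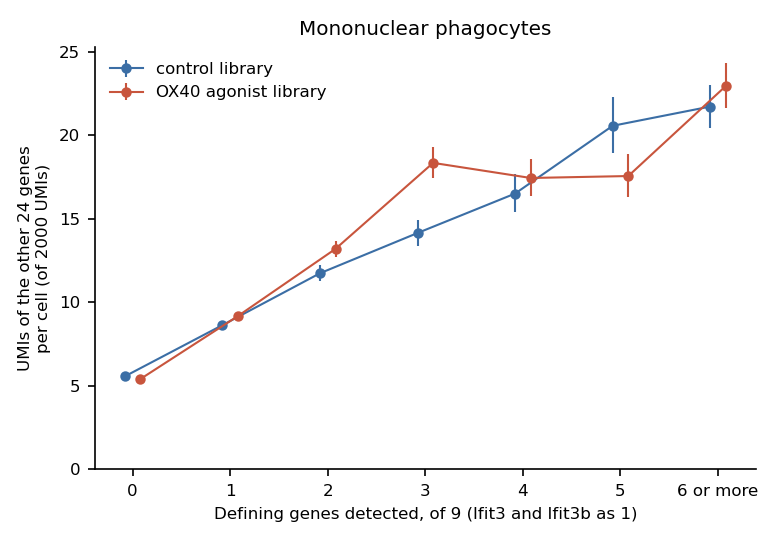
UMIs of the 24 genes not used for the definition per phagocyte thinned to 2000 UMIs (y axis) by the number of the 9 defining features detected (x axis, last group 6 or more); points are means over cells and lines are counting intervals. The mean goes from 5.55 to 21.7 in control and from 5.40 to 23.0 in treated.

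Among the 24 genes, Mx1, Slfn4 and the RNA sensors Ddx58 and Ifih1 separated coordinated-high phagocytes most in both libraries. Mx1, a dynamin-like GTPase whose allele in C57BL/6 mice is known to be defective, was 16.1 times as high in them (11.2 to 23.3) in control and 15.1 times in treated. The cytosolic RNA sensors Ddx58 (RIG-I) and Ifih1 stood at 7.49 and 5.56 times in control and 6.76 and 7.38 in treated, while Dhx58, their relative that lacks signalling domains, stood at 2.68 and 2.80. Of the DNA and Z-nucleic acid sensors, Ifi204 was 3.21 and 3.07 times and Zbp1 2.17 and 2.01 times as high. The Schlafen genes ranged from Slfn4 at 8.33 and 7.89 to Slfn1 at 3.09 and 3.26. Of the synthetases that make short adenylate chains to activate RNase L, Oas3 stood at 3.23 and 3.6, and Oas1a at 1.5 (0.668 to 2.97) in control, where its interval included 1, and 3.57 in treated. The related Oasl2 stood at 5.14 and 5.45.

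Among the transcription factors, Irf7, which amplifies interferon production, was 5.29 times as high (4.55 to 6.15) in control and 4.91 times in treated. Stat2 was 4.61 times as high in both libraries. Irf9, its partner in the complex, was 1.69 (0.998 to 2.72) and 2.32 times as high, the former with an interval that included 1. The abundant members Bst2 and Ifi27l2a were among those that separated the cells less: Bst2 stood at 2.36 (2.06 to 2.69) and 2.29, and Ifi27l2a at 1.53 (1.41 to 1.65) and 1.60. Coordinated-high phagocytes held 48.4% of the Mx1 UMIs in control but 8.16% of those of Ifi27l2a. In treated these were 43.9% and 7.68%.

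**Figure D4:**
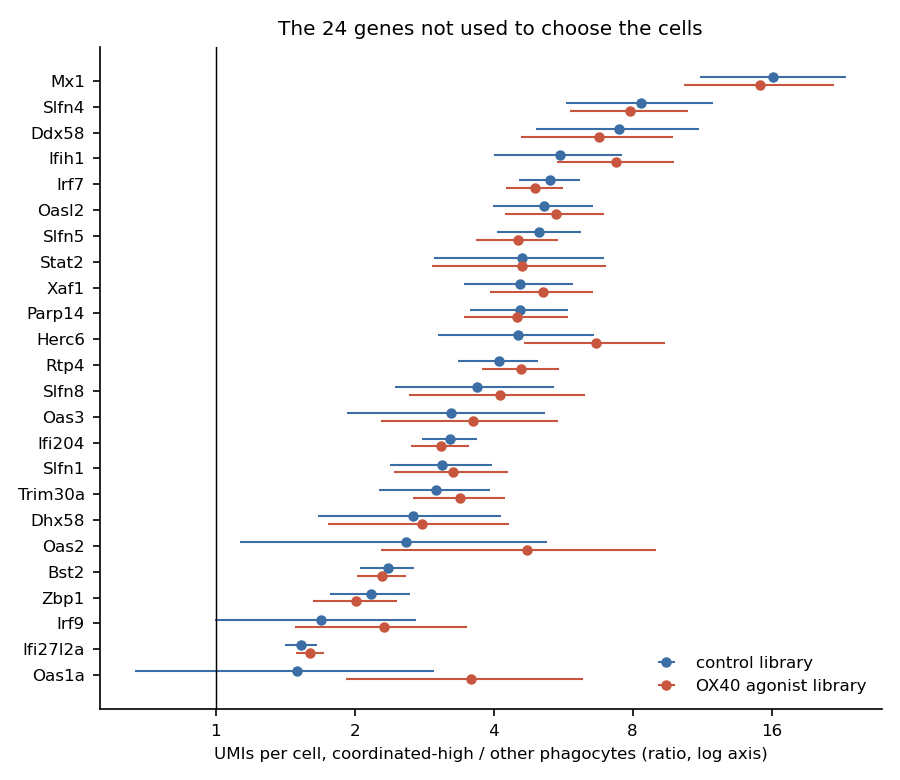
Ratio of UMIs per cell in coordinated-high to other mononuclear phagocytes (x axis, log scale) for each of the 24 genes not used for the definition, at 2000 UMIs per cell; lines are 95% counting intervals and the vertical line marks 1. Mx1 leads in both libraries at 16.1 and 15.1, and Ifi27l2a stands at 1.53 and 1.60.

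Across single phagocytes, 553 of the 561 pairs of members had a positive correlation in control and 554 in treated, with medians of 0.115 and 0.120. These are descriptions over 2366 and 2919 cells that share libraries, and the counts are sparse. The share of positive pairs among other genes was not taken. Phagocyte subsets with differing sums were pooled, and their part in the correlations was not tested. The strongest pair was Ifit1 with Ifit2 in control, at 0.592, and Ifit1 with Rsad2 in treated, at 0.589. Of the 24 genes, Irf7 correlated most with the number of defining features, at 0.398 and 0.396, and Irf9 least, at 0.0768 and 0.0673. Outside the members, the 10 genes most like the features among 6393 eligible genes were Ifi209, Cxcl10, Ms4a4c, Ifi205, Ifi211, Ifi213, Phf11b, Ifi203, Isg20 and Mndal. Ifi209, of the same gene family as Ifi204, had coefficients of 0.383 and 0.433, and Cxcl10, a chemokine for activated T cells, 0.360 and 0.316.

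Genes of neighbouring lists behaved unequally in coordinated-high phagocytes. A list of 28 other interferon-stimulated genes was 2.05 times as high (1.98 to 2.13) in them in control and 2.13 times in treated. The interferon-gamma response list of 18 genes was 2.31 times as high (2.21 to 2.42) and 2.78 times (2.64 to 2.92). Both lists were read as summed UMIs, so abundant genes weigh most and the 2 ratios do not rank the lists. In control, Cxcl10 alone gave 9.12 of the 17.1 interferon-gamma list UMIs per coordinated-high cell and 1.47 of 7.37 in other phagocytes. Ifitm3, at a ratio of 1.69, gave 10.9 of the 27.4 UMIs of the other list per coordinated-high control cell. Within the interferon-gamma list Cxcl10 was 6.19 times as high (5.78 to 6.61) and 6.59 times. Cxcl9, another chemokine for activated T cells, stood at 0.762 (0.657 to 0.880) in control and 1.2 in treated. Socs1, a feedback inhibitor, was 2.26 and 3.64 times as high. Genes of dissociation stress stood at 1.15 and 1.09, phagocyte markers at 0.767 and 0.699, and melanoma markers at 1.07 and 1.19. Of the markers of other cell types, those of plasmacytoid dendritic cells stood at 1.62 (1.03 to 2.44) and 2.25 (1.64 to 3.02), and those of T cells at 0.545 (0.217 to 1.14) and 1.86 (1.06 to 3.07). Markers of type 1 conventional dendritic cells stood at 0.460 (0.319 to 0.642) and 1.06, and those of neutrophils at 1.14 and 0.379 (0.180 to 0.702). Among subset markers, those of classical monocytes stood at 1.16 and 0.775, Arg1 Spp1 cells at 1.13 and 0.833, and C1q macrophages at 0.925 and 0.833. Those of nonclassical monocytes stood at 0.423 and 0.582, and Fcrls, Folr2 and Gas6 at 1.32 and 0.608. Coordinated-high cells had median depths of 8358 UMIs against 9282 in control and 7023 against 7985 in treated. The part of these values in the result was not tested.

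Transcripts of Ifnb1, the gene of interferon-beta, sat in few cells, and mostly in phagocytes. This gene was chosen after the values of its list were seen. Phagocytes held 513 of its UMIs in 44 cells in control and 408 in 70 cells in treated, which was 91.3% and 93.4% of its UMIs in kept cells, and the single richest cell held 17.7% and 18.9% of the phagocytes' UMIs. At 2000 UMIs, 21 control phagocytes had an Ifnb1 UMI and 15 of these were coordinated-high, 71.4% (47.8 to 88.7). In treated, 31 had one and 14 of these were coordinated-high, 45.2% (27.3 to 64.0). Among coordinated-high cells 11.5% (6.6 to 18.3) and 9.72% (5.42 to 15.8) had an Ifnb1 UMI, against 0.268% and 0.613% of the other phagocytes.

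Phagocytes with Ifnb1 had more defining features than those without, 4.67 against 0.816 in control and 3.1 against 0.712 in treated. They held 9.62 UMIs of the 24 genes against 8.0 in control, and 10.9 against 7.93 in treated. Among coordinated-high phagocytes alone, those with Ifnb1 held fewer on average, without matching of cells on the number of features. Within the coordinated-high control phagocytes, the 15 with Ifnb1 held a mean of 9.40 UMIs of the 24 genes (median 5, range 0 to 29) and the 115 without it 20.7 (median 20), a ratio of 0.453 (0.380 to 0.537). The number of defining features was 5.80 and 5.19. In treated, the 14 with Ifnb1 held 16 (median 10.5, range 3 to 52) and the 130 without it 19.7 (median 18), a ratio of 0.812 (0.705 to 0.931). The number of defining features was 5.21 and 5.22. The counts rest on 15 and 14 cells, the intervals leave out the spread between cells, and the cause was not tested.

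Between libraries, phagocytes differed little. The sum of the 34 genes was 4094 CPM in control and 3760 in treated, a ratio of 0.919 (0.911 to 0.926), and the median cell held 3386 and 3043 CPM. Of the 31 members that reached 10 CPM in at least 1 library, 27 were lower in treated, against 45.7% of all 7020 genes. Of the 31, 2 were called lower and none higher, against 1.35% of all genes called lower and 1.47% called higher. The median log2 ratio, taken after adding 10 CPM, was -0.21, and that of all genes 0.013. Slfn1, a Schlafen gene, was 77.0 CPM in control and 45.4 in treated, a ratio of 0.590 (0.552 to 0.630). Oas1a was 22.0 and 13.6 CPM, a ratio of 0.617 (0.545 to 0.699).

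The difference in the sum was not seen when 1 subset was left out, while 6 members were also called lower in the Arg1 Spp1 cells. Cells marked by Fcrls, Folr2 and Gas6 numbered 44 in control and 322 in treated and held 3.6% and 18.6% of the phagocytes' UMIs, and their level of the 34 genes was low in treated, at 2208 CPM. Without that subset the sum was 4120 CPM in control and 4115 in treated, a ratio of 0.999 (0.991 to 1.01). Of 31 members 21 were then lower, with a median log2 ratio of -0.088, and Oas1a alone was called lower, against 0.808% of all genes. In the other subsets the ratio of the sums was 0.891 in Arg1 Spp1 cells, 0.961 in nonclassical monocytes and 1.04 in both classical monocytes and C1q macrophages. The even sum therefore pools subsets that differed in both directions. The parts of the excluded subset's cell number and of its level were not separated. The exclusion was chosen after the data had been examined.

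By role, values in all phagocytes were close together. Of the RNA-binding and RNA-degrading members Ifit1 was 73.8 CPM in control and 56.5 in treated and Ifit2 77.8 and 56.4. Isg15 was 413 and 336 CPM, a ratio of 0.814 (0.793 to 0.836), and its protease Usp18 20.8 and 18.8. Of the nucleic acid sensors Zbp1 had the lowest ratio, with 175 and 123 CPM and 0.705 (0.676 to 0.735), short of a call. Of the transcription factors Stat2 was 26.2 and 18.2 CPM, Irf7 168 and 146, and Irf9 35.9 and 36.1. The 4 members above 1 were Bst2, Ifi27l2a, Irf9 and Slfn4, the last at 17.9 and 23.0 CPM with a ratio of 1.29 (1.15 to 1.44). Ifit3b, Oas2 and Ifi44 were under 10 CPM in both libraries.

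**Figure D5:**
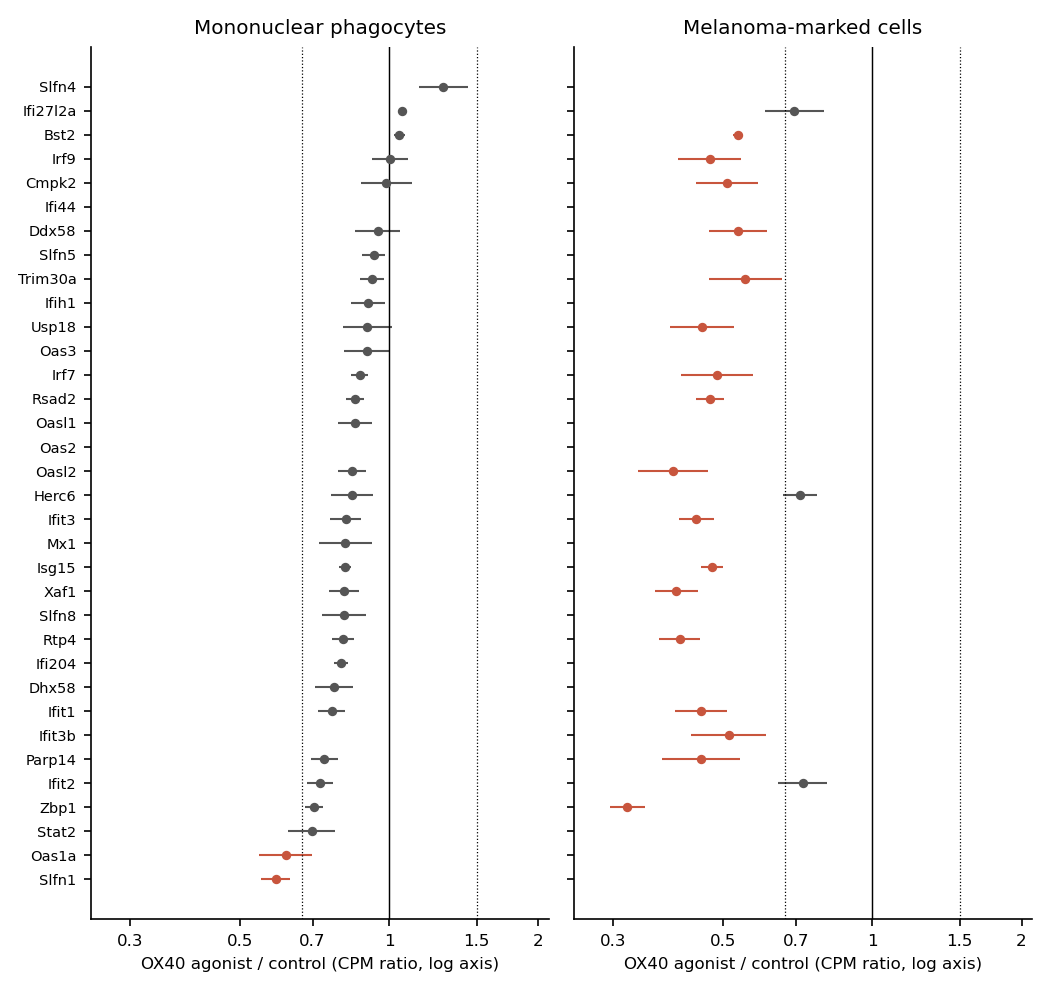
Ratio of treated to control CPM (x axis, log scale) for each member in mononuclear phagocytes (left) and melanoma-marked cells (right); lines are 95% counting intervals, dotted lines mark 1.5-fold, red marks genes called lower, and members under 10 CPM in both libraries have no point. In phagocytes 2 members are red, and in melanoma-marked cells 17.

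The phagocyte subsets did not move together. Classical monocytes stood at 6112 and 6377 CPM, a ratio of 1.04 (1.03 to 1.06), and only Oas1a was called lower, against 1.31% of all genes. C1q macrophages stood at 3289 and 3411 CPM, with Slfn1 called lower (background 1.23%) and Slfn4 higher (background 1.18%). Nonclassical monocytes had Slfn4 called lower (background 2.67%) and Ifit1, Ifit3b and Rsad2 called higher (background 3.08%), but 1 treated cell held 71.4% of the Ifit1 UMIs there and 40.5% of those of Rsad2. In Arg1 Spp1 cells the sum was 4375 and 3899 CPM, a ratio of 0.891 (0.876 to 0.907). There 28 of 31 members were lower, against 47.6% of all genes, and 6 were called lower, against 2.91%. These 6 were Isg15 at 533 and 310 CPM, Rsad2 at 287 and 183, Ifit2, Ifit3, Oas1a and Mx1. Of these, Isg15, Rsad2, Ifit2 and Ifit3 are defining features, and Mx1 had the highest ratio among the 24 other genes in coordinated-high phagocytes. The same ratio of Oas1a was 1.5 (0.668 to 2.97) in control and 3.57 in treated. The coordinated-high share of Arg1 Spp1 cells was 7.50% (5.46 to 10.0) and 5.40% (3.81 to 7.39), with intervals that overlap. Its part in these calls was not tested.

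In the Fcrls Folr2 Gas6 cells 22 of 30 members were called lower in treated, against 5.48% of all genes, with a sum of 3399 and 2208 CPM. Ifit1 went from 190 to 33.7 CPM and Rsad2 from 290 to 58.7. Of the 44 control cells, however, 1 held 67.1% of the Ifit1 UMIs and 59.0% of those of Rsad2. Zbp1, of which the richest control cell held 7.14%, was 77.3 and 26.0 CPM, a ratio of 0.336 (0.256 to 0.444). Over single cells the median sum was 2031 CPM in control and 1543 in treated.

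Melanoma-marked cells showed the broadest difference. The sum was 1319 CPM in control and 662 in treated, a ratio of 0.502 (0.494 to 0.510), and the median cell held 887 and 277 CPM. All 20 members at 10 CPM or more were lower in treated, against 40.1% of all 7816 genes. Of the 20, 17 were called lower, against 1.83% of all genes called lower and 0.154% called higher. The median log2 ratio was -0.58, and that of all genes 0.027. The remaining 14 members, among them all 4 Schlafen genes, Mx1 and Stat2, were under 10 CPM in both libraries.

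Within melanoma-marked cells every role with measured members was involved. Of the effectors Bst2, the most abundant, was 624 CPM in control and 334 in treated, a ratio of 0.536 (0.524 to 0.548), with no cell holding more than 1.55% of its UMIs. Rsad2 was 76.8 and 36.1 CPM, Rtp4, known as a chaperone of receptors, 42.3 and 17.3, and Xaf1, known to promote cell death, 37.0 and 14.9. Of the sensors Zbp1 had the lowest ratio of all 20, with 69.9 and 22.4 CPM and 0.320 (0.296 to 0.347), and Ddx58 was 18.1 and 9.68. Both measured transcription factors were called lower, Irf7 at 12.3 and 5.98 CPM and Irf9 at 15.9 and 7.46. Isg15 was 132 and 62.6 CPM, a ratio of 0.474 (0.451 to 0.499). The 3 members not called were Herc6, the mouse ligase of Isg15, at 42.5 and 30.3 CPM, Ifit2 at 21.1 and 15.3, and Ifi27l2a at 14.7 and 10.2. Ifit1, at 24.5 and 11.1 CPM, was concentrated, with 13.5% of its UMIs in 1 control cell and 29.6% in 1 treated cell.

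Leukocyte transcripts in these droplets moved the same way. The 7 phagocyte markers summed to 60.5 CPM in control and 38.4 in treated, with 4 of 7 lower, and the 5 T cell markers to 40.5 and 22.3, with 5 of 5 lower. In phagocytes themselves the former summed to 10159 and 9398 CPM. In melanoma-marked droplets with at most 1 leukocyte marker UMI per 20000, a limit chosen after the data had been examined, 275 control and 460 treated cells remained. There the sum was 1213 and 678 CPM, a ratio of 0.559 (0.548 to 0.570), 15 of 18 members were called lower, and the median cell held 825 and 259 CPM. In melanoma-marked droplets with at least 20000 UMIs the ratio was 0.505 and in those with fewer it was 0.348 (0.289 to 0.415).

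CD8 T cells differed little. The sum was 910 CPM in control and 843 in treated, a ratio of 0.926 (0.905 to 0.947). None of the 13 measured members was called lower or higher, against 0.531% of all genes called lower and 0.359% higher, and the median log2 ratio was -0.11, with -0.027 over all genes. Isg15 was 47.6 and 43.7 CPM, a ratio of 0.918 (0.832 to 1.01), and Zbp1 58.8 and 56.1. Bst2 was 125 and 108 CPM.

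In NK cells the sum was 640 and 510 CPM, a ratio of 0.797 (0.718 to 0.884), and 2 of 15 members were called lower (background 2.63%) and none higher (background 2.05%). These were Bst2, at 104 and 64.8 CPM (155 and 76 UMIs), and Ifi204, at 22.2 and 5.12. Phagocyte markers in NK cells summed to 103 and 74.2 CPM, with 6 of 7 lower, and their part in this result was not tested. In regulatory T cells the sum was 3251 and 3578 CPM, and Ifi27l2a alone made up 2147 and 2563 of it. Ifit2 and Cmpk2 were called lower there (background 3.43%) and Oasl2 higher (background 2.72%), on 2 to 16 UMIs per library each.

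In mature migratory and conventional dendritic cells the sums were lower in treated or near even. In mature migratory cells the sum was 1492 and 1338 CPM. Isg15 was called lower, at 370 and 241 CPM with a ratio of 0.651 (0.592 to 0.715), and so was Ifit2, at 23.6 and 10.7 (background 3.41%), while Irf7 was called higher, at 38.3 and 60.2 CPM with a ratio of 1.57 (1.22 to 2.03) (background 1.46%). In type 1 conventional dendritic cells (cDC1) the sum was 1130 and 924 CPM, and 7 of 22 members were called lower, against 5.82% of all genes. Among them were Isg15 at 84.5 and 51.4 CPM, Zbp1 at 108 and 70.0, and Stat2 at 41.6 and 18.6, and Xaf1 alone was called higher (background 2.49%). In cDC2 the sum was 3043 and 3104 CPM, a ratio of 1.02 (0.972 to 1.07). Of 30 members 15 were lower and 15 higher in treated, and Ifit1, Ifit3b, Oasl1 and Mx1 were called higher (background 2.24%). The richest treated cell for each of these genes held 51.8% of the Ifit1 UMIs, 74.1% of Ifit3b, 41.2% of Oasl1 and 36.0% of Mx1.

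Neutrophils and plasmacytoid dendritic cells moved in opposite directions. In neutrophils the sum was 9494 and 5436 CPM, a ratio of 0.573 (0.521 to 0.629), and 13 of 33 members were called lower, against 4.32% of all genes. The median log2 ratio of all genes in neutrophils was itself -0.36, and that of the members -0.94. The median neutrophil held 1704 UMIs in control and 1402 in treated, and 1 control cell held 19.3% of the Isg15 UMIs and 71.4% of those of Ifit1. In plasmacytoid dendritic cells, known as professional producers of interferon-alpha, the sum was 4707 and 5765 CPM, a ratio of 1.22 (1.12 to 1.34). Isg15, Ifi27l2a, Usp18 and Parp14 were called higher there (background 1.49%). Isg15 went from 1 UMI to 19, Usp18 from 0 to 10 and Parp14 from 0 to 15, while Bst2 held 554 and 937 UMIs.

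Ligands, receptors and related responses were read from lists chosen for their role. Of the 10 type I interferon and receptor genes 3 reached 10 CPM in phagocytes and none was called. Ifnb1 was 17.0 and 13.1 CPM, a ratio of 0.770 (0.674 to 0.878). Of the 28 other interferon-stimulated genes none of 27 measured was called in phagocytes (median log2 ratio -0.15), 13 of 19 were called lower in melanoma-marked cells (-0.48), and none of 23 in CD8 T cells.

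The interferon-gamma response list, which shares targets with type I interferon but contains no member, differed more. In phagocytes 14 of 16 measured genes were called lower, with a median log2 ratio of -0.75 against -0.21 for the members. Without the Fcrls Folr2 Gas6 cells 9 of 16 were, with -0.57 against -0.088. In melanoma-marked cells 11 of 12 were called lower, with -1.22 against -0.58, and in CD8 T cells none of 13. No test of the difference between the lists was made.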

How the data were processed

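Whole-number UMI counts per gene and barcode were deposited by the authors without normalization, made with Cell Ranger on build mm10 per the submitters' processing notes, version 3.1.0 per the file headers. A barcode was used with 500 or more UMIs, 200 or more genes and a mitochondrial share of up to 10% (6354 control, 7500 treated). The highest Scrublet-type doublet scores, from 2 simulated doublets per cell, were removed at 0.8% per 1000 barcodes (323 and 450). Total depths were 114026695 and 118059108 UMIs.

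Cells were gated on marker genes. Gate thresholds were set after cluster marker scores had been viewed, and 96.4% of gated phagocytes lay in phagocyte clusters (Leiden, resolution 1.5). Cells with markers of 2 lineages (263 and 259) or without a class (173 and 203) entered only the values over all cells. Among these are the totals of coordinated-high cells. Members, marker lists and gene lists were chosen with earlier results of these data known.

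UMIs were summed per gene, class and library and divided by the class total (CPM). A gene was compared where it reached 10 CPM in at least 1 library. Ratios carry exact conditional 95% intervals, sums exact Poisson and shares exact Clopper-Pearson ones. In the text a share of 0 carries instead the limit of 3 counts of the total, which is lower than the Clopper-Pearson limit. All cover counting error only. All 34 members are accounted for. From the lists, genes past 1.5-fold could be named. Outside them, the 10 genes with a UMI in at least 2% of phagocytes in each library whose levels correlated most with the number of defining features were named. Thinned values used 2000 UMIs per cell. Alternatives were the pseudocount, the level minimum, thinning, the doublet and mitochondrial filters, cluster-based classes and the number of defining features. The scripts were tested on simulated data. Python 3.11.15, numpy 2.4.6, scipy 1.17.1, pandas 2.3.3 and scanpy 1.11.5 were used. A result for 1 gene outside the members is not reported here.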

Additional observations from a re-analysis of the deposited data

How the results depend on the processing

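The median log2 ratio of the members in phagocytes, -0.21, lay between -0.25 and -0.18 under 8 alternatives and was -0.088 without the Fcrls Folr2 Gas6 cells. Members called lower there were 2 under 6 alternatives and 1 each with cells thinned to 2000 UMIs and without those cells. In melanoma-marked cells the median, -0.58, was -0.79 with thinning, -1.0 with a pseudocount of 1 CPM, -0.44 with no minimum level, and between -0.59 and -0.55 under 6 others. The count called lower, 17, was 28 with no minimum level, which adds 14 members of low level, and between 13 and 18 otherwise. In CD8 T cells -0.11 became -0.29 with thinning and stayed between -0.18 and -0.09 otherwise. The share of coordinated-high phagocytes follows its definition: 9.26% in control and 7.78% in treated with at least 3 features, 3.34% and 3.08% with at least 5, and 10.0% and 9.0% with 4 features at 5000 UMIs. It lay between 5.44% and 5.73%, and between 4.81% and 5.00%, under the 6 other alternatives. The cause of these shifts was not tested. No paired analysis was possible because each group is 1 library. Depth limits neutrophils most, since few reach 2000 UMIs, and the exclusion of the Fcrls Folr2 Gas6 cells was chosen after the data had been examined.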
